A study of Mus musculus with 3 samples.

Results

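Fibrillar collagens are the chains that assemble into the cross-striated fibrils of connective tissue, and 10 of their genes were examined for regions bound by the T-box transcription factor TBX5 in the fetal mouse lung. A peak belonged to a gene when its summit lay inside the gene, or when the nearest end of any RefSeq protein-coding gene, within 100 kb, was an end of that gene. By this rule 45 of the 28381 peaks in the list belonged to 9 of the 10 genes, and Col11a2 had 0. The 6 chains of types I, III and V, made mainly by fibroblasts (Col1a1, Col1a2, Col3a1, Col5a1, Col5a2 and Col5a3), held 40 of these peaks. The 4 chains of types II, XI and XXVII, known mainly from cartilage (Col2a1, Col11a1, Col11a2 and Col27a1), held 5.

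Chromatin immunoprecipitation and sequencing (ChIP-seq) with an antibody to TBX5 was performed at E14.5 on lungs of the outbred CD-1 mouse, when the airways branch into mesenchyme. The libraries were 2 from ChIP, with 1 whole lung in each, and 1 from input chromatin, all from CD-1 mice with no genetic change named. The titles name lung throughout, while the source field of ChIP library 2 and of the input reads heart. The submitters provided 1 peak list for all 3 libraries, so the agreement of the 2 ChIP libraries, their depth and the marker genes of the tissue could not be checked, and no result below has an error between replicates.

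Type I collagen, built from the products of Col1a1 and Col1a2, gives connective tissue its tensile strength, and type III, from Col3a1, is found beside it in extensible organs such as lung and vessel wall. Type V chains, from Col5a1, Col5a2 and Col5a3, co-assemble with type I and set where fibrils start and how thick they grow. Type II, from Col2a1, is the main fibril of cartilage, type XI chains, from Col11a1 and Col11a2, play the part there that type V plays elsewhere, and type XXVII, from Col27a1, is made by cartilage at the growth plate. Fibroblasts fill the mesenchyme of the lung, while the cartilage content of the lungs used here was not measured.

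RefSeq promoter windows (assembly GRCm38.p6, the same genome as mm10) were matched for 7 of the 10 genes, without Col1a1, Col5a2 and Col2a1. Each window is set on 1 transcript start, which was the first annotated base of the gene in Col1a2 and Col3a1 and lay inside the gene in the others, by 44 bp in Col5a1, 50 bp in Col5a3, 61 bp in Col11a1, 219 bp in Col11a2 and 1403 bp in Col27a1. The whole Col27a1 window and 269 of the 300 bases of the Col11a2 window thus lay inside the gene. A peak reached the window of 3 of these 7 genes, Col1a2, Col3a1 and Col5a1, which are shown here with Col11a1, a cartilage gene whose window had no peak. The summit itself lay inside the window at Col3a1 and Col5a1 but not at Col1a2. Of all 21044 windows of protein-coding genes, 2482 held a summit. Each sequence reads 5′ to 3′ on the plus strand and stops before the first annotated base of the gene, and capitals mark the T-box half-site AGGTGT or its reverse complement ACACCT.
Col1a2, chr6:4505368-4505617: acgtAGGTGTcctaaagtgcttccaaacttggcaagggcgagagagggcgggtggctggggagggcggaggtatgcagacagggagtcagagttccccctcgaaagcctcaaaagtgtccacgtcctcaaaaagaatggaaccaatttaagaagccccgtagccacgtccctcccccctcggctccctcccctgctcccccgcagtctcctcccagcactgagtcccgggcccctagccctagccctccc
Col3a1, chr1:45311288-45311537: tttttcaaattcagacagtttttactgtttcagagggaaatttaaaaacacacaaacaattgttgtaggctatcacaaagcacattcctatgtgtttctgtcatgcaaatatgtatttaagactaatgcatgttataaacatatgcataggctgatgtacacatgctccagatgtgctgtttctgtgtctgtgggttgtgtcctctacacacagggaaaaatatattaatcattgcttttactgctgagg
Col5a1, chr2:27886175-27886380: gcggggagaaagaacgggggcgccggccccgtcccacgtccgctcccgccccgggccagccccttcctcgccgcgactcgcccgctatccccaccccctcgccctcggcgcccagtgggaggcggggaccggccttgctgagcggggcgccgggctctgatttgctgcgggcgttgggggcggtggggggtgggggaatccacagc
Col11a1, chr3:114030290-114030478: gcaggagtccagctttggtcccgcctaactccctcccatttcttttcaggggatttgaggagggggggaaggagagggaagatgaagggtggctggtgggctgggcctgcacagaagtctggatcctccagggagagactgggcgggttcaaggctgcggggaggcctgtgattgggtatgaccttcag

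The 3 windows with a peak differed in sequence. The Col1a2 sequence held the half-site AGGTGT once, on the plus strand, beginning 246 bases before the start and inside the peak, with its centre 69 bp from the summit. That summit lay 312 bp before the start, outside the printed stretch. The Col3a1 sequence held no AGGTGT or ACACCT, although the peak covered all of it and the summit fell on base 166 as printed. The Col5a1 sequence held none either, and the summit fell on base 142. Over the whole RefSeq window of 300 bases, from 250 before the transcript start to 50 after it, Col3a1 was 37.7% G and C with 0 CpG, while Col5a1 was 75% G and C with 34 CpG. Col1a2 lay between, at 61% and 13 CpG.

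Across all 21044 such windows of protein-coding genes, 12.8% held AGGTGT on either strand, and 12.1% of the 2482 windows that held a peak summit did so, against 12.9% of the others. The collagen windows held it in 1 of 7 cases, near that background. The longer form GGTGTGA, found in 3.67% of windows, was present in 1 of the 7, that of Col11a2, the gene without a peak. A further 5 short sequences were searched for on both strands. The SOX-factor sequence ACAAAG was found once among the members, in the Col3a1 window and inside its peak, and in 16.9% of all windows. The same Col3a1 peak held the one member match to the TEAD-factor sequence GGAATG, which 13.5% of all windows had. For NKX2 factors, whose sequence AAGTG is short and present in 45.2% of all windows, matches were seen at Col1a2, Col3a1, Col5a1 and Col5a3. The GATA-factor sequence AGATAA was seen only at Col11a2 among the members (9.68% of all windows). No member window held the forkhead sequence TGTTTAC (3.03% of all windows). These matches describe letters in a window, and the sequences of the other peaks were not used here.

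TBX5 peaks were denser around the fibroblast collagen genes than around the cartilage collagen genes. The territory of a gene is the stretch in which a summit would be assigned to it, and it summed to 914.1 kb for the 6 fibroblast genes and 626.6 kb for the 4 cartilage genes. The fibroblast group had 4.38 peaks per 100 kb (exact 95% Poisson interval 3.13 to 5.96) and the cartilage group 0.798 (0.259 to 1.86), a ratio of 5.48 (exact 95% interval 2.16 to 17.8). Over the territories of all 21627 protein-coding genes the density was 1.29 per 100 kb, which lay below the interval of the fibroblast group and inside that of the cartilage group. Intervals cover counting error only, and peaks of a gene are not independent of each other, so no p-value was computed.

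The ratio rested in part on Col11a1, whose territory of 390 kb was the longest of the 10 and held 1 peak. Without Col11a1 the ratio was 2.59 and its interval reached below 1 (0.935 to 9.95), and without Col27a1, which held 3 of the 5 cartilage peaks, it was 10.5 (2.72 to 89.7).

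**Figure D1:**
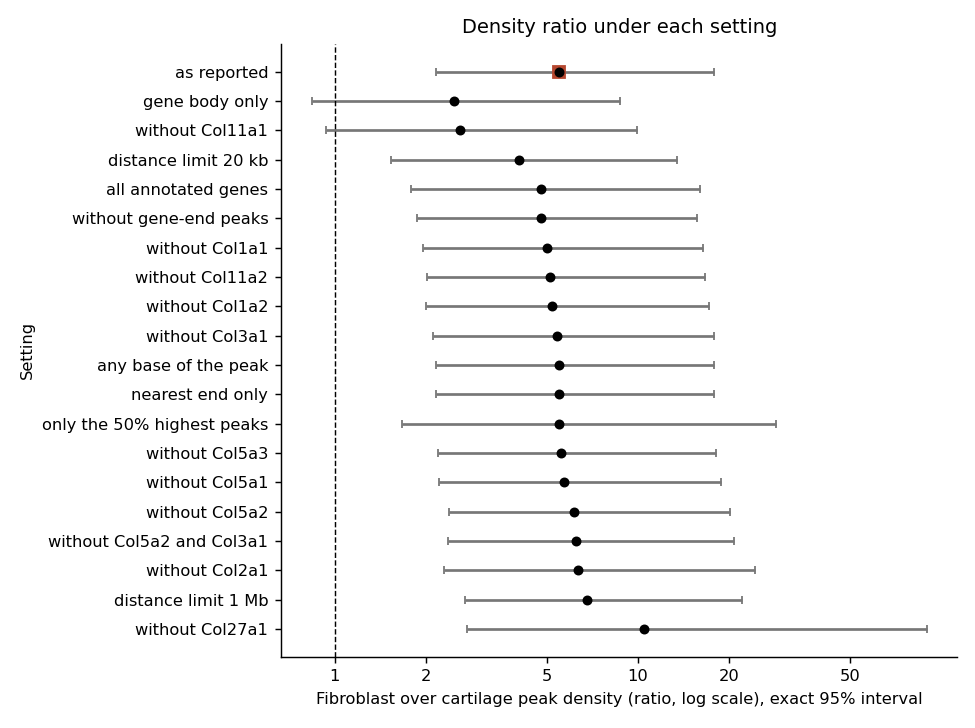
Ratio of fibroblast to cartilage peak density on a log axis, as reported (red square) and under each alternative (points), with exact 95% intervals; the dashed line marks equal density. All points lie to the right of the line, from 2.47 to 10.5, and the intervals for gene bodies only and without Col11a1 cross it.

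**Figure D2:**
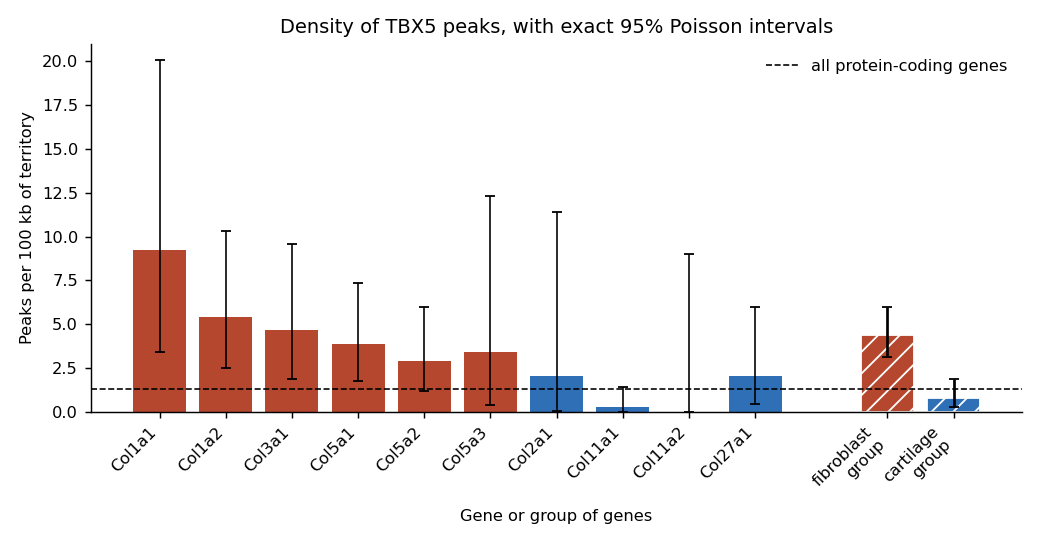
Peaks per 100 kb of territory for each gene and for both groups, fibroblast in red and cartilage in blue, with exact 95% Poisson intervals; the dashed line is the density over all protein-coding genes, 1.29. The 6 fibroblast genes run from 2.9 to 9.23 and the 4 cartilage genes from 0 to 2.05, with wide intervals for single genes.

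Gene by gene, the order of density was Col1a1 (9.23 peaks per 100 kb), Col1a2 (5.43), Col3a1 (4.65), Col5a1 (3.86), Col5a3 (3.41), Col5a2 (2.9), Col2a1 and Col27a1 (2.05 each), Col11a1 (0.256) and Col11a2 (0). The values of the 2 groups did not overlap, but the intervals of neighbours in this order did: that of Col1a1 ran from 3.39 to 20.1 and that of Col5a2 from 1.17 to 5.98. The interval of Col11a1 (0.00649 to 1.43) lay below the intervals of Col1a1, Col1a2, Col3a1 and Col5a1. Of all protein-coding genes, 3.28% had a density as high as Col1a1, 17.2% one as high as Col5a2 and 23.6% one as high as Col2a1.

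All 6 fibroblast genes and 3 of the 4 cartilage genes had a peak, where 41.7% of all protein-coding genes had one. Strong peaks, here the 5000 of the list with the highest −log10 q (the peak caller's measure of confidence), were found at 4 of the 6 fibroblast genes, namely Col1a1, Col1a2, Col3a1 and Col5a2, and at 2 of the 4 cartilage genes, Col2a1 and Col27a1. Of all protein-coding genes, 11.9% had a strong peak. A longer territory has more room for a peak, and these shares were not corrected for length. The median territory of all protein-coding genes was 48.8 kb, while those of the members ran from 40.9 to 390 kb. Per 100 kb, strong peaks were 3.43 times as dense in the fibroblast group, with an interval from 0.73 to 32.2, so a difference in strong peaks was not detectable with 10 of them in one group and 2 in the other. With the 1000 highest peaks in place of 5000, only Col1a1, with 2, and Col5a2, with 1, had any.

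**Figure D3:**
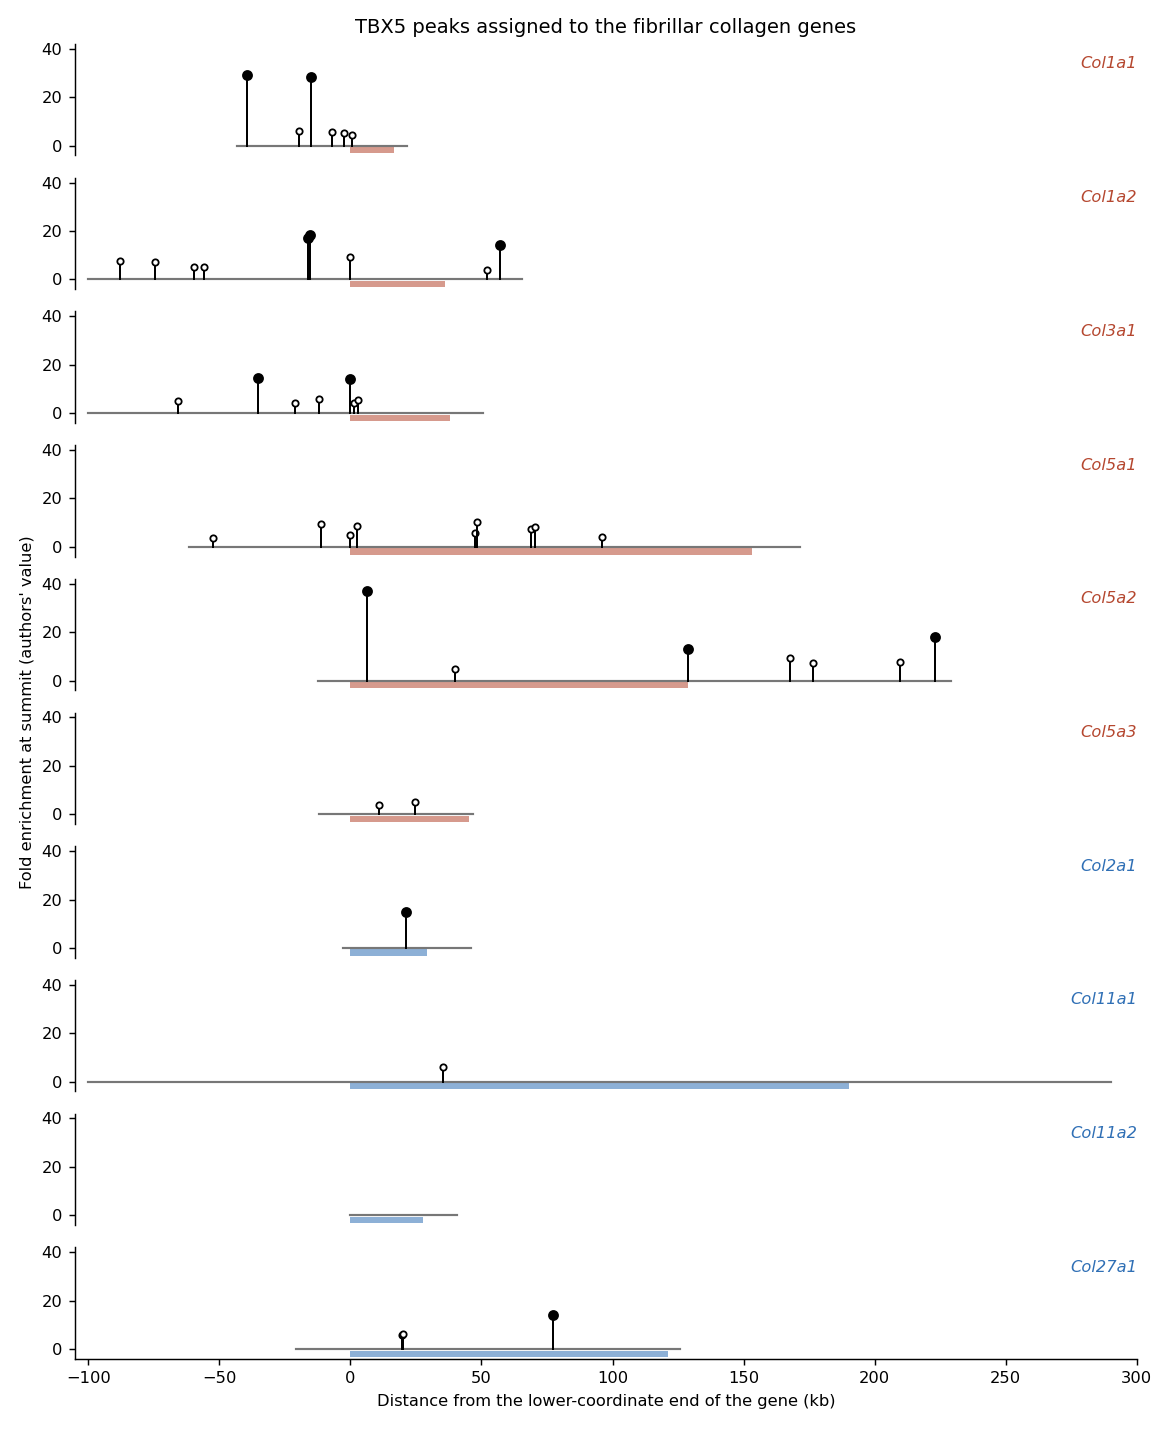
Summits assigned to each gene, by distance from its lower-coordinate end in kb, with stems as high as the authors' fold enrichment; filled points are strong peaks, coloured bars are gene bodies and grey lines are territories. Peaks of the fibroblast genes lie inside and outside the gene bodies, while the 5 peaks of the cartilage genes all lie inside.

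The 2 groups also differed in where their peaks lay. In the cartilage group 5 of 5 peaks lay inside the gene, and 0 were found in 258 kb of surrounding territory, which allows up to 1.16 per 100 kb by a limit of 3 counts over the group and 1.43 by the upper end of the exact 95% Poisson interval. In the fibroblast group 14 of 40 (35%) lay inside and 26 outside, where 52.2% of all peaks in the list lay inside a protein-coding gene. That share also counts peaks between genes more than 100 kb from any gene end. Gene bodies made up 418 of the 914.1 kb of fibroblast territory and 368 of the 626.6 kb of cartilage territory. Outside the genes the fibroblast density was 5.24 per 100 kb (3.42 to 7.68), and the exact 95% interval of its ratio to the cartilage group had a lower end of 3.42 and no upper end. Col11a1 made up most of the cartilage stretch outside genes, and without it the remaining 58.5 kb allow up to 5.13 per 100 kb (3 counts), close to the fibroblast density. The lower end of the ratio was then 0.773, so the difference outside genes was not detectable without Col11a1. Inside the genes it was 3.35 per 100 kb (1.83 to 5.62), against 1.36 (0.441 to 3.17) in the cartilage group, a ratio of 2.47 whose interval ran from 0.839 to 8.75. Over all protein-coding genes the densities were 1.45 inside and 1.11 outside.

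A peak within 1 kb of an end of the gene was present at 5 of the 6 fibroblast genes, all except Col5a3, and at 0 of the 4 cartilage genes, while 20.7% of all protein-coding genes had one. Before the first base of Col11a2, only the nearer part of the 0.516 kb up to the gene Rxrb could be assigned to it. A count of 0 among 4 genes cannot be read as a lack of such peaks beside a share of 20.7%. With only the 50% of peaks that had the highest −log10 q, 4 fibroblast genes had such a peak. The end was the start of the gene in Col1a2, Col3a1 and Col5a1, whose summits lay 312, 85 and 65 bp before the first annotated base. In Col5a2 the summit lay 96 bp inside the higher-coordinate end, and in Col1a1 it lay 734 bp inside the lower-coordinate end. For Col5a2 and Col1a1 no strand was available here, so which end is the start was not determined. The strongest of these 5 was at Col3a1 (14.1-fold, from 45311229 to 45311649 on chromosome 1), followed by Col5a2 (13.2-fold), Col1a2 (9.42-fold), Col5a1 (4.98-fold) and Col1a1 (4.59-fold). Of the 5, those at Col3a1 and Col5a2 were strong peaks.

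Col1a1 (gene ID 12842, chromosome 11 from 94936224 to 94953042) is a short gene of 16.8 kb with 6 peaks. Only the peak 734 bp in lay inside it, and the other 5 lay on the lower-coordinate side. The 2 strong ones lay 39.3 kb away (29.3-fold, from 94896505 to 94897094, number 365 of the list by −log10 q) and 15 kb away (28.3-fold, from 94920994 to 94921472, number 767). The remaining outside peaks had 6.1-fold enrichment at 19.5 kb, 5.84-fold at 7.16 kb and 5.25-fold at 2.4 kb, the last 2 inside the non-coding RNA gene Gm46293. Enrichment was thus highest at the 2 strong peaks outside the gene and lowest inside it. On the other side the next gene, Sgca, lies 9.73 kb away. Only the nearer part of that gap could be assigned to Col1a1, and it held no peak.

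Col1a2 (gene ID 12843, chromosome 6 from 4505618 to 4541543, plus strand) had 9 peaks and none inside the gene. A pair of strong peaks stood 600 bp apart upstream, with summits 16 kb and 15.4 kb before the start (17.2-fold from 4489418 to 4489731, and 18.3-fold from 4489905 to 4490348). A far-upstream enhancer of Col1a2 that acts in mesenchymal cells is known from reporter mice, and its overlap with this pair was not tested. The peak over the start had 9.42-fold enrichment (from 4505171 to 4505685). Another 4 peaks lay from 55.8 to 87.9 kb upstream at 5.18 to 7.54-fold, all inside the non-coding RNA gene Gm46948. Downstream, 21.1 kb beyond the last base, lay another strong peak, of 14.1-fold, with one of 3.92-fold next to it at 16.3 kb.

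Col3a1 (gene ID 12825, chromosome 1 from 45311538 to 45349706, plus strand) had 7 peaks, 5 before the start and 2 inside. The strong ones were the peak over the start (14.1-fold) and one 35.4 kb upstream (14.6-fold, from 45275996 to 45276592). The pair inside, 1.56 kb and 2.87 kb from the start, had 4.31 and 5.49-fold enrichment. Weaker upstream peaks lay at 11.9, 21 and 65.9 kb, with 5.65, 4.24 and 5.18-fold.

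Its neighbour Col5a2 (gene ID 12832, chromosome 1 from 45374331 to 45503282) lies 24.6 kb away and also had 7 peaks. The highest peak of the whole family was here, inside the gene 6.16 kb from the end that faces Col3a1 (36.8-fold, from 45380027 to 45380913, number 355 of the list). It was also the widest of the 45, at 887 bp against a median of 305 bp. At the far end of the gene stood the strong peak of 13.2-fold (from 45503015 to 45503337), and 4 more lay beyond that end: 9.13-fold at 38.9 kb, 7.07-fold at 47.4 kb, 7.54-fold at 80.5 kb and a strong peak of 17.9-fold at 94.2 kb. The remaining peak, of 4.71-fold, lay inside the gene. No peak lay between the 2 genes, and the stretch from the last Col3a1 summit to the first Col5a2 summit measured 66.1 kb. The 14 peaks of this neighbourhood thus stood mostly at its outer sides, apart from the 36.8-fold and 4.71-fold peaks.

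Col5a1 (gene ID 12831, chromosome 2 from 27886381 to 28039510, plus strand) had 9 peaks and none of them strong. Its highest, of 10.2-fold, lay inside the gene 48.1 kb from the start (from 27934376 to 27934632, number 5762 of the list), 770 bp from another of 5.68-fold. Inside the gene there were also peaks of 8.46-fold at 2.52 kb, 7.52-fold at 68.8 kb, 8.11-fold at 70.6 kb and 3.92-fold at 96.1 kb from the start. Before the start, a peak of 9.26-fold lay at 11.2 kb and one of 3.59-fold, the lowest of the 45, at 52.3 kb. As many peaks as at Col1a2 were therefore found here, with a similar median fold (7.52 against 7.54 at Col1a2). The highest peak was lower, at 10.2-fold against 18.3-fold.

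Col5a3 (gene ID 53867, chromosome 9 from 20770050 to 20815117, minus strand) was the least marked of the fibroblast group. Its 2 peaks lay inside the gene with 3.77 and 5.2-fold enrichment, both below the list median of 6.27, and none lay near either end. The 58.6 kb of its territory were short, so its interval of density (0.413 to 12.3 per 100 kb) took in every other member but Col11a1 and Col11a2.

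Of the cartilage genes, Col2a1 (gene ID 12824, chromosome 15 from 97975602 to 98004724) had 1 peak, a strong one of 14.8-fold inside the gene, 7.82 kb from the higher-coordinate end (from 97996692 to 97997127, number 3294 of the list). The summit also lay inside the non-coding RNA gene Gm46536. Col27a1 (gene ID 373864, chromosome 4 from 63214009 to 63334991, plus strand) had 3 peaks inside the gene. Its strong peak lay 77.2 kb from the lower-coordinate end (13.9-fold, from 63290920 to 63291343), and a pair of 5.8 and 6.19-fold stood 413 bp apart 19.8 and 20.2 kb from that end. The strong peaks of Col2a1 and Col27a1 thus lay in the lower part of the range of strong peaks at the fibroblast genes, 13.2 to 36.8-fold.

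Few peaks were called at the type XI genes, and signal outside called peaks was not measured. Of all protein-coding genes, 41.7% had a peak. Col11a1 (gene ID 12814, chromosome 3 from 114030479 to 114220756, plus strand), the longest of the 10 at 190 kb, had 1 peak of 6.13-fold inside the gene, 35.2 kb from its start (from 114065570 to 114065809). The nearest other peak of the list was 1672 kb away. Col11a2 (gene ID 12815, chromosome 17 from 34038919 to 34066684, plus strand) had 0 peaks in a territory of 40.9 kb, which allows up to 7.34 per 100 kb (3 counts; upper end of the exact interval 9.03).

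**Figure D4:**
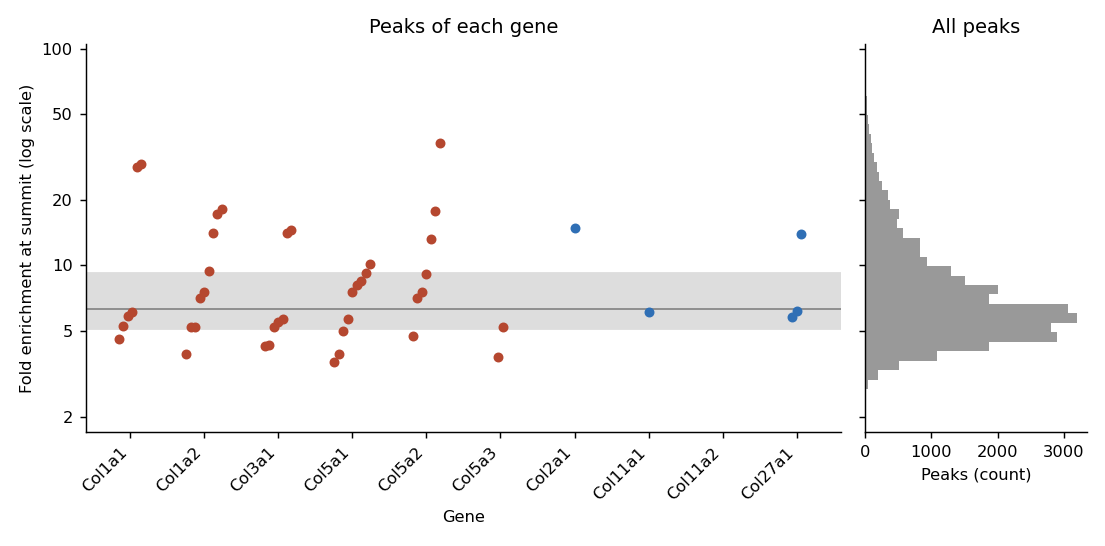
Fold enrichment of each peak by gene on a log axis, fibroblast in red and cartilage in blue, beside the distribution of all 28381 peaks; the line is the list median, 6.27, and the grey band its quartiles, 5.07 to 9.22. The highest points belong to Col5a2 and Col1a1, while the peaks of Col5a3 stay below the line.

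In strength, the collagen peaks were close to the rest of the list. Their median fold was 7.07 (95% interval from binomial ranks 5.65 to 9.13), and the median of all peaks, 6.27, lay inside that interval. The median was 7.07 for the 40 fibroblast peaks (range 3.59 to 36.8) and 6.19 for the 5 cartilage peaks (range 5.8 to 14.8). Enrichment of 10-fold or more was reached by 13 of the 45 (28.9%), 11 of them in the fibroblast group, against 21.2% of all peaks. Strong peaks made up 12 of the 45 (26.7%), against 17.6% of the list. The groups therefore overlapped in the strength of single peaks and differed in their number.

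Spacing was also near that of the list. Of the 45 summits, 26 (57.8%) had another summit within 10 kb, against 50.1% of all peaks. Within 1 kb of another summit were 6 of the 45, the pairs at Col1a2, Col5a1 and Col27a1, where 16.9% of all peaks were that close. Just beyond the limit of 100 kb lay 2 peaks nearest to Col5a2, at 116 and 123 kb (4.24-fold each), and 1 nearest to Col3a1, at 195 kb (5.18-fold), and none nearest to the other genes.

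Genes whose products make, trim, link, bind or degrade these fibrils were examined in the same way, from lists compiled with earlier results of these data known. Their counts stand beside 41.7% of all protein-coding genes with a peak and 11.9% with a strong peak, and were not corrected for length of territory. Peaks per 100 kb, against 1.29 over all protein-coding genes, were 3.15 (2.28 to 4.25) for hydroxylation, folding and export. Collagen receptors had 2.46 (1.5 to 3.8) and propeptide cleavage 1.73 (1.11 to 2.57). Collagens on fibril surfaces had 1.63 (1.06 to 2.38), and collagenases and gelatinases 1.94 (0.63 to 4.53). Of the 17 genes for hydroxylation, folding and export of procollagen, 13 (76.5%) had a peak and 5 (29.4%) a strong one (Plod2, Plod3, Colgalt2, Serpinh1 and Sec24d). Sec24d, a coat protein of the vesicles that carry procollagen out of the endoplasmic reticulum, had 8 peaks, up to 38.6-fold inside the gene. Serpinh1, the collagen chaperone HSP47, had 4 peaks in a territory of 26.1 kb, up to 26.7-fold 7.29 kb outside the gene. For propeptide cleavage, 7 of 8 genes (87.5%) had a peak and 2 (25%) a strong one, namely Bmp1, the main C-proteinase (9.71-fold at a gene end), and Pcolce2, which enhances that cleavage (14.1-fold).

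Of the cross-linking enzymes, 3 of 5 genes (60%) had a peak and 0 a strong one, at 1.22 peaks per 100 kb (0.334 to 3.13), near the 1.29 of all protein-coding genes. Lox, the lysyl oxidase, had 2 peaks up to 8.27-fold, and its relative Loxl3 had 1 of 5.99-fold. Small leucine-rich proteoglycans, which coat fibrils and limit their width, had a peak in 7 of 8 genes (87.5%) and a strong one in 4 (50%: Bgn, Fmod, Lum and Prelp), at 5.36 peaks per 100 kb (3.53 to 7.8), a density close to that of the fibroblast collagens. Bgn reached 27-fold and Fmod 24.2-fold.

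Of the collagens that sit on the surface of fibrils, 7 of 8 (87.5%) had a peak and 3 (37.5%) a strong one. Col14a1 had 13 peaks up to 46.2-fold, higher than any fibrillar collagen, and Col22a1 had 2 up to 19.8-fold. Collagen receptors had a peak in 5 of 6 genes (83.3%) and a strong one in 3 (50%), with 8 peaks at the integrin gene Itga1 (up to 18.8-fold) and 4 at Ddr1 (up to 13.4-fold). Collagenases and gelatinases had a peak in 4 of 5 genes (80%) and a strong one in 0, the highest at Mmp13 (9.89-fold) and Mmp8 (7.37-fold). The remaining fibrillar collagen gene measured, Col24a1, had 7 peaks and 0 strong ones (10.5-fold at the highest), a density of 2.05 per 100 kb, equal to that of Col2a1 and Col27a1.

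Among 10 regulators and matrix genes of cartilage, 5 (50%) had a peak, near the share of all genes, and 3 (30%) a strong one. These 3 were Sox5, Sox6 and Runx2, while Sox9 and Cnmd had a peak but not a strong one. Sox6 had 14 peaks up to 29.3-fold, and Runx2, which drives cartilage maturation and bone formation, had 7 up to 32.5-fold. Their territories were long, at 690 and 451 kb, and their densities were 2.03 and 1.55 per 100 kb. The 5 without a peak, Acan, Comp, Matn1, Matn3 and Hapln1, all encode structural proteins of the cartilage matrix. Whether regulators and matrix genes differ at equal length of territory was not tested. The cartilage collagens, also matrix genes, were not uniformly without peaks. Col2a1 and Col11a1 had 1 each, Col27a1 had 3 and Col11a2 had 0. The density of the list, 1.34 per 100 kb (0.959 to 1.81), was near the 1.29 of all protein-coding genes.

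**Figure D5:**
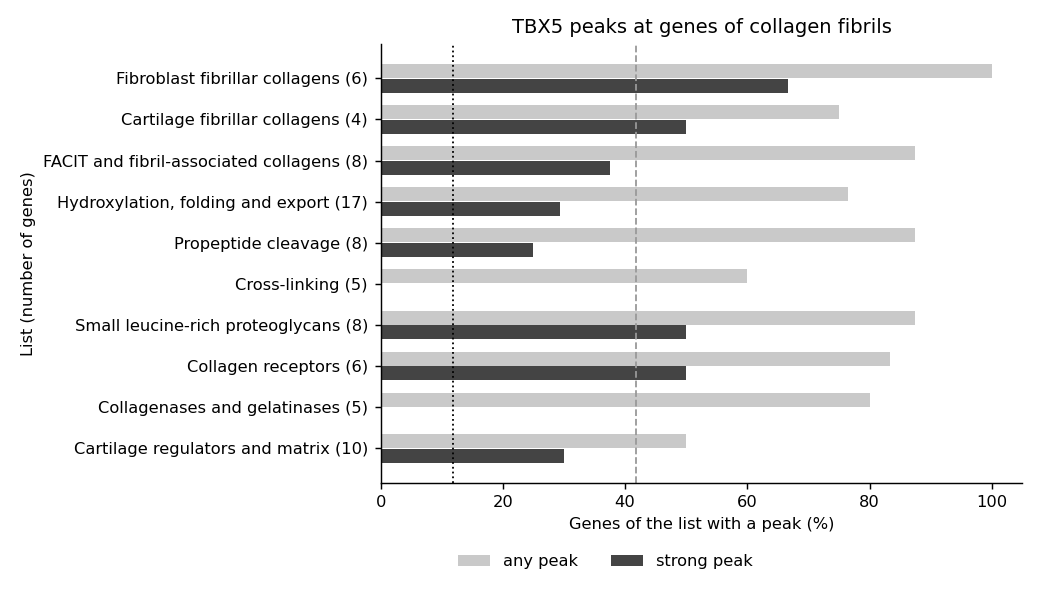
Share of the genes of each list with any peak (light bars) and with a strong peak (dark bars), with the number of genes in brackets; the dashed and dotted lines are the shares of all protein-coding genes, 41.7% and 11.9%. All lists lie above the dashed line, and all except cross-linking enzymes and collagenases, which had 0 strong peaks, lie above the dotted line. Shares are not corrected for length of territory. The cartilage collagens had 0.798 peaks per 100 kb, against 1.29 over all protein-coding genes.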

How the data were processed

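TBX5 ChIP-seq peaks came from 1 deposited list without a header. Per the submitters' processing notes, Bowtie2, SAMtools and MACS2 were used with mm10; settings, pooling of the ChIP libraries and use of the input were not given in the sources used here. The fold enrichment (ratio over local background), −log10 q and score of each peak, and the summit offset, are the authors' values as deposited. They served only to describe and rank peaks within the list, and the score was not used. Depth is unknown.

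Summits were assigned to genes of a RefSeq table (GRCm38.p6) that gives first and last bases; strand came from RefSeq promoter windows. Territories, exact Poisson intervals and exact conditional intervals of ratios were computed with Python 3.11.15 and SciPy 1.17.1 and tested on simulated data. Motifs were searched in promoter windows only, in place of the planned summit windows, since no genome was used. No test over genes was run. Named were all 10 members and, of each related list, the 2 genes with the highest −log10 q; others were named after their values were seen. The members and lists were chosen with earlier results of these data known. Alternatives changed strong peaks, ranking, distance, assignment, candidate genes and group membership; leaving out single members other than Col5a3 and Col27a1, and alternatives for the gene-end count, were added after seeing the data.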

Additional observations from a re-analysis of the deposited data

How the results depend on the processing

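The ratio of fibroblast to cartilage density stayed above 1 under all 19 alternatives, but its interval reached below 1 under 2: with gene bodies only (2.47, 0.839 to 8.75) and without Col11a1 (2.59, 0.935 to 9.95). In the others it ran from 4.04 with a limit of 20 kb to 10.5 without Col27a1. The number of collagen peaks fell from 45 to 29 with all annotated genes as candidates, 19 with gene bodies only and 27 with the 50% highest peaks. Genes with a strong peak numbered 6, against 2 with the 1000 highest peaks as strong and 3 with gene bodies only. Fibroblast genes with a peak at an end fell from 5 to 2 with gene bodies only. These drops follow from the fewer peaks or shorter stretches counted. The median fold was 9.42 with the 50% highest peaks and from 6.13 to 7.07 in the other alternatives. The number of genes with a peak was 7 to 9 throughout. No paired analysis was possible because the list gives no value for a single library, and for the same reason no library could be left out.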

Other observations

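Across all 44 collagen genes of the annotation, a comparison made after the values were seen, the fibroblast chains were not alone at the top. Col6a1 had the highest density, 11.6 peaks per 100 kb (9 peaks, up to 22.5-fold), followed by Col1a1, Col6a3 (11 peaks, 4 strong, 5.81 per 100 kb) and Col6a2 (4 peaks, 5.47 per 100 kb). These encode type VI collagen, which forms beaded microfibrils beside the fibrils of connective tissue. Col1a2 ranked 5 and Col3a1 ranked 7, with Col14a1 between them. Of the 34 collagen genes outside the family examined, 26 (76.5%) had a peak, 10 (29.4%) a strong peak and 4 (11.8%) a peak within 1 kb of an end, where the shares of all protein-coding genes were 41.7%, 11.9% and 20.7%. Their density was 2.14 per 100 kb (exact 95% Poisson interval 1.8 to 2.53), below the interval of the fibroblast chains and above that of the cartilage chains.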
